A study of Mus musculus with 8 samples.

Results

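The transcripts described here are those of 35 genes that make sterols and fatty acids under the control of the sterol regulatory element-binding proteins (SREBPs), out of 54532 genes in the deposited count table. The genes were taken by name for their known roles, with earlier results of these data known: 5 regulators, 19 genes of the sterol branch and 11 of the fatty acid branch. They were measured in epithelial cells isolated from the intestine of C57BL/6J dams at lactation day 5, in 4 WT and 4 Rank-knockout libraries, each labelled as 1 mouse. Rank (gene symbol Tnfrsf11a) is the receptor for the cytokine RANKL, and the comparison asks what its loss changes in the gut epithelium of lactating mothers. In the Rank-knockout dams, called RankΔvil in the study, floxed Rank alleles were deleted by Cre under the Villin1 promoter, which acts throughout the intestinal epithelium and leaves Rank in the other cells of the gut. Controls were female littermates. The sources used here do not give which of the floxed and Cre alleles the WT dams carried, and state the age of the mice only as a general range, not for these dams.

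SREBPs are made as precursors that sit in the endoplasmic reticulum with their escort Scap. When membrane sterols are low the complex moves to the Golgi, proteases release the active factor, and genes of cholesterol and fatty acid synthesis are transcribed; when sterols are high, Insig proteins hold Scap back. In the small intestine, dividing crypt cells need new membrane sterols and fatty acids, while villus enterocytes also take up dietary sterol and fat and export them in chylomicrons.

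Libraries were made with a 3′ mRNA-seq kit that gives about 1 tag per transcript whatever its length. CPM (counts scaled to a common library size) therefore needs no length correction between genes. Reads shared by overlapping genes may be left out, so levels of different genes compare only roughly. Totals ran from 1530781 to 4335653 counts. WT replicate 2 held 4335653 counts, against 1530781 to 1616024 in the other WT libraries. Rank-knockout libraries held 2103716 to 4321154 counts, so depth differed with genotype (median 1609942 in WT and 3070751 in Rank-knockout). The 50 most abundant genes of a library took 19.6% to 20.5% of its counts in WT and 15.7% to 17.0% in Rank-knockout. Tnfrsf11a stood at 60.2 ± 17.5 CPM in WT dams and 37.7 ± 8.57 CPM in Rank-knockout (± SD over 4 libraries each), with overlapping ranges and an edgeR adjusted p of 0.0322 (log2 fold change -0.67 ± 0.22, SE). When WT replicate 1 or 4, or either of Rank-knockout replicates 1 and 3, was left out, that adjusted p was 0.0746 to 0.104, and with library totals as the scale it was 0.113. Its tag lies at the 3′ end and the deleted exons are not given in the sources used here, so this level is no check of the deletion. The 8 markers of the labelled epithelium were present in every library. Of these, Epcam, Vil1 and Krt20 were lower in Rank-knockout, Krt18 and Krt19 were higher, and Cdh1, Krt8 and Cdx2 did not pass the test. The markers of macrophages, stroma and muscle, and hepatocytes summed to at most 10.2 CPM, 9.68 CPM and 7.58 CPM in any library. T cell markers summed to 164 to 256 CPM in WT dams and 109 to 181 CPM in Rank-knockout, and those of plasma and B cells, chiefly Igha, to 29.1 to 95.1 CPM and 6.24 to 40.6 CPM. Of the pancreatic acinar markers, which summed to at most 61.6 CPM, Cela1 held nearly all counts, and Cpa1 and Amy2a5 had 0 in all libraries. No tested marker of T, plasma and B or acinar cells passed the edgeR test, and Igha had the smallest adjusted p of them (0.0664).

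More of these genes were higher than lower in Rank-knockout epithelium. Among those higher were Fasn and Acly, which make fatty acids, and Fads1 and Elovl5, which desaturate and lengthen polyunsaturated ones. Fdps and Sqle of the sterol pathway were also higher. Sc5d, which acts near the end of sterol synthesis, and Insig2, which restrains SREBPs, were lower. Of the 35 genes, 33 had enough counts to be tested. With an edgeR adjusted p under 0.05, 13 rose and 2 fell in Rank-knockout, and the call of 1 of the latter, Insig2, was lost in 12 of 16 alternative settings. Over all 9855 tested genes, 15.8% rose and 14.6% fell. The median log2 fold change, Rank-knockout minus WT as everywhere below, was 0.54 over the 33 genes and 0.02 over all tested genes. In 14 of the 33, WT and Rank-knockout libraries held separate ranges (11 with every Rank-knockout library above every WT library, 3 with every one below), against 28.8% of all tested genes. In the fatty acid branch, 6 of 10 tested genes were higher and 0 were lower, with a median of 0.79. In the sterol branch, 6 of 18 were higher and 1 was lower, with a median of 0.32.

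**Figure D1:**
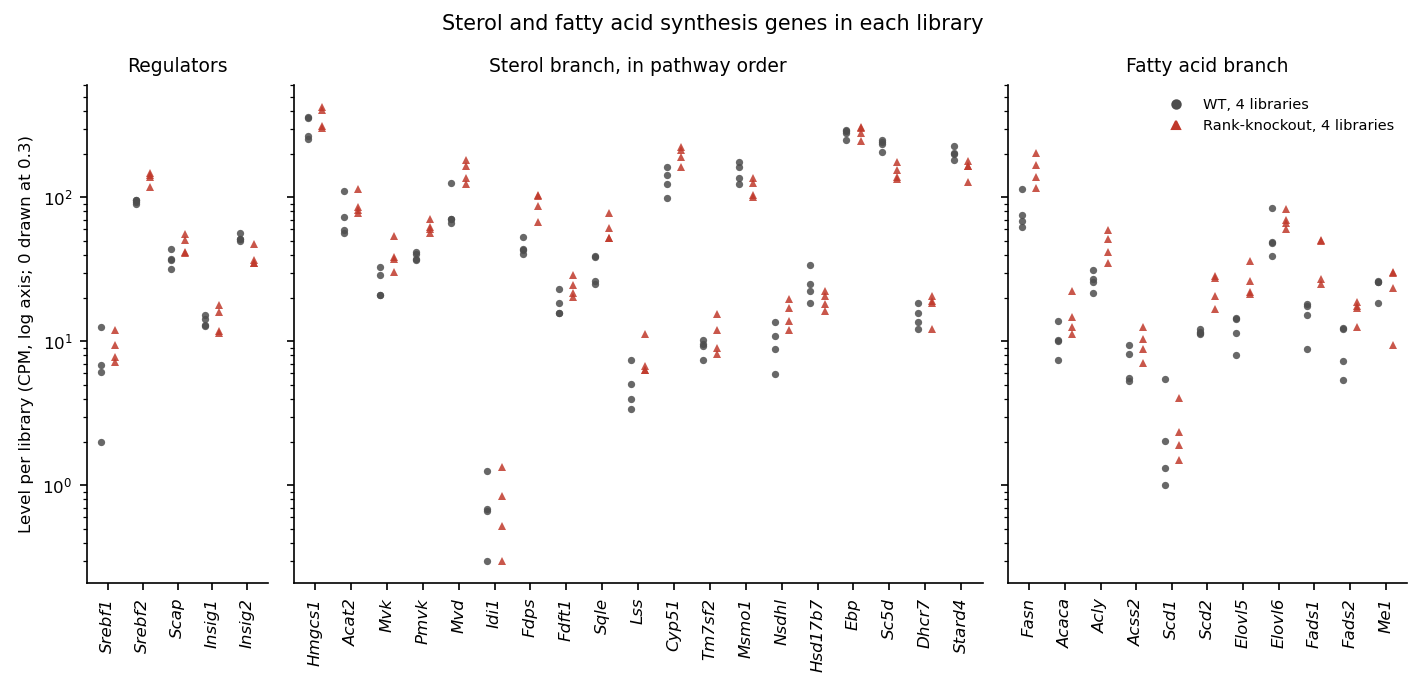
Level of each of the 35 genes in every library, in CPM on a log axis, with WT libraries as circles and Rank-knockout libraries as triangles, and 0 drawn at 0.3. Sterol genes span from Idi1, with at most 1.34 CPM, to Hmgcs1, with up to 424 CPM, while in the fatty acid branch all Rank-knockout libraries lie above all WT libraries for Fasn, Acly, Scd2, Elovl5, Fads1 and Fads2.

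Markers of cell types within the epithelium moved with genotype beside the results that follow. Of 12 villus enterocyte markers, 11 were lower in Rank-knockout and 0 were higher (median log2 fold change -1.07), and their summed level was 23080 to 34480 CPM in WT dams and 11650 to 17010 CPM in Rank-knockout. Of 12 markers of replicating and cycling crypt cells, 12 were higher (median 1.23), and their summed level was 543 to 854 CPM in WT dams and 1397 to 2195 CPM in Rank-knockout. Of 4 stem cell markers, 2 were higher (Olfm4 and Smoc2), and of 6 Paneth cell markers, 3 were higher. Of 6 goblet cell markers, 4 were lower and 1, Agr2, was higher. In bulk RNA, fewer cells of a type and less RNA per cell cannot be told apart, and the part of these marker shifts in the results below was not tested.

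Among the regulators, Srebf2 was higher and Insig2 was lower in Rank-knockout. Srebf2, which encodes the SREBP that chiefly drives sterol synthesis, had 96.5, 90.2, 93.5 and 96.4 CPM in WT replicates 1 to 4 and 118, 139, 149 and 144 CPM in Rank-knockout replicates 1 to 4. All Rank-knockout libraries lay above all WT libraries, and Srebf2 was 1.46-fold higher (log2 fold change 0.54 ± 0.13, SE; edgeR adjusted p = 0.00658). Srebf1, the gene of the SREBP tied mainly to fatty acid synthesis, was expressed at a far lower level, with 6.79, 2.01, 6.10 and 12.6 CPM in WT dams and 12.0, 7.82, 7.14 and 9.41 CPM in Rank-knockout. The WT libraries spread from the lowest to the highest of all 8, and Srebf1 did not pass the test (log2 fold change 0.60 ± 0.42; edgeR adjusted p = 0.293). The lowest of these values rests on 8 counts, in WT replicate 2, the deepest WT library.

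Scap, the escort, had 44.2, 31.9, 36.6 and 37.6 CPM in WT dams and 56.0, 51.0, 41.5 and 40.8 CPM in Rank-knockout, with overlapping ranges (log2 fold change 0.35 ± 0.18; edgeR adjusted p = 0.140). The Insig proteins retain Scap. Insig1 had 14.3, 13.1, 12.9 and 15.2 CPM in WT dams and 11.8, 16.0, 17.8 and 11.5 CPM in Rank-knockout, and the WT libraries fell within the range of the Rank-knockout libraries (log2 fold change 0.03 ± 0.23; edgeR adjusted p = 0.943). Insig2, the more abundant of the pair here, had 56.4, 51.0, 51.5 and 50.2 CPM in WT dams and 34.8, 47.6, 37.0 and 34.8 CPM in Rank-knockout. All Rank-knockout libraries lay below all WT libraries, and Insig2 was 1.36-fold lower (log2 fold change -0.44 ± 0.16; edgeR adjusted p = 0.0492). That p lies at the threshold. The call was lost in 12 of 16 alternative settings, with an adjusted p of 0.253 with library totals as the scale and of 0.0550 to 0.126 without any of the 4 WT libraries or without Rank-knockout replicate 1, 3 or 4.

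In the early sterol pathway, which builds mevalonate and turns it into farnesyl diphosphate, 4 of the 5 genes after mevalonate (Mvk, Pmvk, Mvd and Fdps) were higher in Rank-knockout and the other, Idi1, was not tested. Hmgcs1, which makes the precursor of mevalonate and was the most abundant gene of the branch, had 309.5 ± 55.3 CPM in WT dams and 362 ± 63.0 CPM in Rank-knockout and did not pass the test (log2 fold change 0.23 ± 0.16; edgeR adjusted p = 0.312). Acat2, the thiolase before it, did not pass either (log2 fold change 0.23 ± 0.21; edgeR adjusted p = 0.426), and its near-identical copy Acat3 held at most 4 counts in a library. Without WT replicate 2, which had the highest Acat2 level of the WT libraries, Acat2 passed (log2 fold change 0.50; edgeR adjusted p = 0.0345), and with each of the other libraries left out it did not, with log2 fold changes of 0.09 (without WT replicate 3) to 0.29. The 3 genes that carry mevalonate onward all passed the test.

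Mvk, mevalonate kinase, had 21.1, 20.9, 29.1 and 33.0 CPM in WT dams and 30.1, 37.2, 38.8 and 54.1 CPM in Rank-knockout. The genotypes overlapped only in that the lowest Rank-knockout library lay below the highest WT library, and Mvk was 1.56-fold higher (log2 fold change 0.64 ± 0.22; edgeR adjusted p = 0.0366). With any of WT replicates 1 to 3 or Rank-knockout replicates 2 to 4 left out, its edgeR adjusted p was 0.0527 to 0.116. Pmvk, the next kinase, had 37.4, 40.5, 42.0 and 37.0 CPM in WT dams and 56.2, 70.7, 60.7 and 62.0 CPM in Rank-knockout. Its genotypes did not overlap, and it was 1.58-fold higher (log2 fold change 0.66 ± 0.15; edgeR adjusted p = 0.00439). Mvd, the decarboxylase that yields isopentenyl diphosphate, had 66.6, 126, 70.5 and 71.3 CPM in WT dams and 123, 165, 181 and 136 CPM in Rank-knockout. WT replicate 2 stood apart from the other WT libraries and reached into the Rank-knockout range; Mvd was 1.77-fold higher with it (log2 fold change 0.83 ± 0.20; edgeR adjusted p = 0.00683) and its log2 fold change was 1.11 without it.

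Idi1, the isomerase of isopentenyl diphosphate, had 7 counts in all WT libraries together and 9 in all Rank-knockout libraries together, and was not tested. Fdps, farnesyl diphosphate synthase, had 43.5, 40.2, 53.5 and 42.9 CPM in WT dams and 67.8, 87.8, 104 and 103 CPM in Rank-knockout. Its genotypes did not overlap, and with 2.02-fold (log2 fold change 1.01 ± 0.17; edgeR adjusted p = 0.000740) it had the largest rise and the smallest p of the sterol branch. An annotated read-through transcript, Gm43738, covers most of Fdps on the same strand and had 0 counts in all libraries, so reads in the exons they share may have been left out in both genotypes.

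From farnesyl diphosphate onward, Fdft1, squalene synthase, did not pass the test, with 18.2 ± 3.44 CPM in WT dams and 23.9 ± 3.82 CPM in Rank-knockout (log2 fold change 0.38 ± 0.21; edgeR adjusted p = 0.172). Sqle, squalene epoxidase, a rate-limiting step of the pathway, had 25.1, 38.5, 39.3 and 26.4 CPM in WT dams and 52.4, 61.0, 78.5 and 52.3 CPM in Rank-knockout. All Rank-knockout libraries lay above all WT libraries, and Sqle was 1.85-fold higher (log2 fold change 0.89 ± 0.20; edgeR adjusted p = 0.00361). Lss, which closes the sterol rings, was low, with 4.96 ± 1.81 CPM in WT dams and 7.64 ± 2.41 CPM in Rank-knockout, and its log2 fold change of 0.63 ± 0.34 did not pass (edgeR adjusted p = 0.166). Without Rank-knockout replicate 4, which had the highest Lss level, the log2 fold change was 0.37. Cyp51, which removes a methyl group from lanosterol, had 99.2, 162, 142 and 124 CPM in WT dams and 191, 163, 214 and 222 CPM in Rank-knockout. The lowest Rank-knockout library lay just above the highest WT library, and Cyp51 was 1.49-fold higher (log2 fold change 0.58 ± 0.16; edgeR adjusted p = 0.0141). Without WT replicate 1 or WT replicate 4 its edgeR adjusted p was 0.0744 and 0.0597.

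The late enzymes, which trim the sterol and move its double bonds, did not share a direction. Sc5d, the sterol desaturase near the end of the pathway, had 244, 207, 252 and 236 CPM in WT dams and 134, 155, 138 and 176 CPM in Rank-knockout. All Rank-knockout libraries lay below all WT libraries, and Sc5d was 1.55-fold lower (log2 fold change -0.63 ± 0.14; edgeR adjusted p = 0.00330). It was the only gene of the branch to fall, and the call held in all 16 alternative settings. Msmo1, the methylsterol oxidase, and Hsd17b7, a ketosteroid reductase, had log2 fold changes of -0.37 ± 0.15 and -0.36 ± 0.21 and did not pass (edgeR adjusted p = 0.0810 and 0.211), though Msmo1 did without Rank-knockout replicate 4 (edgeR adjusted p = 0.0453). Nsdhl, the dehydrogenase that acts with them, had a log2 fold change of 0.58 ± 0.27 and did not pass (edgeR adjusted p = 0.111), and did without WT replicate 2 (edgeR adjusted p = 0.0400), while its log2 fold change was 0.39 to 0.84 with each library left out.

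Ebp, a sterol isomerase, was among the most abundant genes of the branch, with 278 ± 20.4 CPM in WT dams and 286 ± 29.3 CPM in Rank-knockout, and its log2 fold change of 0.04 ± 0.13 did not pass (edgeR adjusted p = 0.863). The reductases Tm7sf2 and Dhcr7 had log2 fold changes of 0.26 ± 0.27 and 0.20 ± 0.23 (edgeR adjusted p = 0.495 and 0.552). The start of Tm7sf2 overlaps the end of Vps51 on the same strand, where reads cannot be told apart. Stard4, a sterol carrier protein, had 181, 200.1, 226 and 204 CPM in WT dams and 127, 164, 166 and 179 CPM in Rank-knockout. Its genotypes did not overlap, all Rank-knockout libraries being the lower ones, but the log2 fold change of -0.35 ± 0.14 did not pass (edgeR adjusted p = 0.0730).

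**Figure D2:**
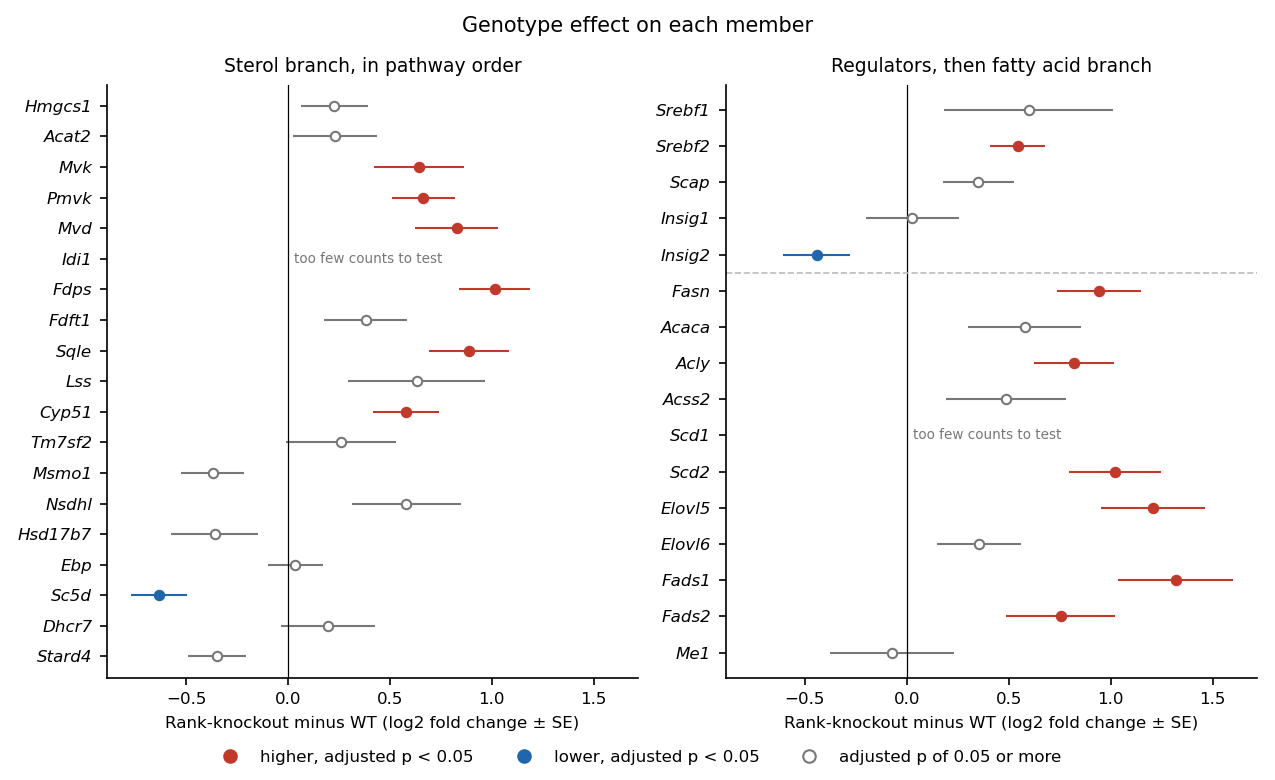
Log2 fold change of each gene, Rank-knockout minus WT, with its SE as a bar; filled points have an edgeR adjusted p under 0.05 and open points do not. From Mvk to Fdps the tested sterol genes lie between 0.64 and 1.01, Sc5d lies at -0.63, and the 6 called genes of the fatty acid branch lie between 0.76 and 1.32.

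In the fatty acid branch, 6 genes were higher in Rank-knockout. Acly makes acetyl-CoA, Fasn makes the chain itself, Elovl5 lengthens chains, and Scd2, Fads1 and Fads2 put in double bonds. Elovl5, Fads1 and Fads2 act on polyunsaturated chains, so the 6 genes do not form a single route from Fasn. Acly, which splits citrate into acetyl-CoA in the cytosol, had 25.8, 27.1, 31.2 and 21.8 CPM in WT dams and 59.0, 41.7, 51.3 and 35.3 CPM in Rank-knockout. Its genotypes did not overlap, and it was 1.77-fold higher (log2 fold change 0.82 ± 0.20; edgeR adjusted p = 0.00588). Acss2, which makes acetyl-CoA from acetate, and Acaca, the carboxylase that makes malonyl-CoA, had log2 fold changes of 0.49 ± 0.29 and 0.58 ± 0.28 and did not pass (edgeR adjusted p = 0.223 and 0.122). Fasn, fatty acid synthase, had 75.4, 114, 69.1 and 62.1 CPM in WT dams and 203, 138, 168 and 117 CPM in Rank-knockout. The highest WT library, replicate 2, lay just below the lowest Rank-knockout library, replicate 4, and Fasn was 1.93-fold higher (log2 fold change 0.94 ± 0.21; edgeR adjusted p = 0.00353). Me1, the malic enzyme that supplies NADPH, ranged from 9.48 to 30.1 CPM in Rank-knockout and from 18.5 to 26.4 CPM in WT (log2 fold change -0.07 ± 0.30; edgeR adjusted p = 0.879). Rank-knockout replicate 1 had the lowest Me1 level of all 8 libraries and the highest Fasn level.

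Elongation is shared by Elovl6, which extends saturated chains, and Elovl5, which extends polyunsaturated ones. Elovl6 had 55.2 ± 20.3 CPM in WT dams and 69.9 ± 9.59 CPM in Rank-knockout, with the highest single value in WT replicate 1, and did not pass the test (log2 fold change 0.35 ± 0.21; edgeR adjusted p = 0.210). Without that library it passed (log2 fold change 0.60; edgeR adjusted p = 0.0286), and with each of the others left out it did not, with log2 fold changes of 0.20 (without WT replicate 4) to 0.42. Elovl5 had 14.3, 8.04, 11.5 and 14.5 CPM in WT dams and 36.4, 26.4, 21.9 and 21.4 CPM in Rank-knockout. Its genotypes did not overlap, and it was 2.31-fold higher (log2 fold change 1.21 ± 0.25; edgeR adjusted p = 0.00264).

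The desaturases put double bonds into fatty acid chains. Fads1, which acts late in the synthesis of arachidonic acid, had 17.7, 18.1, 8.81 and 15.2 CPM in WT dams and 50.8, 27.2, 50.0 and 25.1 CPM in Rank-knockout. All Rank-knockout libraries lay above all WT libraries, in a higher pair (replicates 1 and 3) and a lower pair (replicates 2 and 4), and Fads1 was 2.50-fold higher, the largest rise among the 35 genes (log2 fold change 1.32 ± 0.28; edgeR adjusted p = 0.00300). Fads2, which acts before it, had 12.2, 12.3, 5.42 and 7.26 CPM in WT dams and 18.7, 17.5, 16.9 and 12.6 CPM in Rank-knockout. The highest WT and the lowest Rank-knockout library nearly met, and Fads2 was 1.69-fold higher (log2 fold change 0.76 ± 0.27; edgeR adjusted p = 0.0419). The call was lost in 8 of 16 alternative settings. With any of WT replicates 1, 3 and 4 or Rank-knockout replicates 1 to 3 left out, its edgeR adjusted p was 0.0539 to 0.127.

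Of the stearoyl-CoA desaturases, Scd1 had 17 counts in all WT libraries together and 31 in all Rank-knockout libraries together and was not tested, with 2.45 ± 2.04 CPM and 2.44 ± 1.11 CPM. Scd2 had 12.2, 11.6, 11.5 and 11.2 CPM in WT dams and 28.6, 16.8, 20.5 and 27.5 CPM in Rank-knockout. The WT libraries lay close together and below every Rank-knockout library, and Scd2 was 2.03-fold higher (log2 fold change 1.02 ± 0.23; edgeR adjusted p = 0.00364). The other copies, Scd3 and Scd4, had 0 counts in all libraries. Both pairs lie on chromosome 19 of GRCm38: Fads2 at 10062765 to 10101746 on the minus strand and Fads1 at 10182888 to 10196877 on the plus strand, and Scd2 at 44293674 to 44306864 on the plus strand and Scd1 at 44394455 to 44407879 on the minus strand. Next to Fads2 on the same chromosome, at 10041569 to 10060110, is Fads3, which was not among the 35 genes and is described with the other genes of the pathway.

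Summed over the genes of a branch, the fatty acid branch had 292, 281, 232 and 210.0 CPM in WT replicates 1 to 4 and 509, 379, 449 and 376 CPM in Rank-knockout replicates 1 to 4, without overlap. The sterol branch had 1524, 1776, 1782 and 1682 CPM in WT dams and 1632, 1794, 1988 and 2040 CPM in Rank-knockout, with overlapping ranges. The 4 most abundant sterol genes in WT, Hmgcs1, Ebp, Sc5d and Stard4, had log2 fold changes from -0.63 to 0.23, and Sc5d was the only one of them past the threshold.

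Promoter windows of 300 bases (250 before and 50 after the start of transcription; RefSeq, GRCm38.p6) were searched for letters that SREBPs and the factors working with them are known to bind, each on both strands. Sqle, Fads1, Fdps and Scd2, which rose, had no window given, nor did Fdft1, Scd1 and Stard4, and these were not searched. A window was given for 28 of the 35 genes, 27 of them tested. The classical sterol regulatory element, TCACNCCAC, was found in 1 of these 27 genes (3.70%), Hmgcs1, and in 1.34% of the 7680 tested genes with a window. The E-box CACGTG, which SREBPs can also bind, was found in 6 of 27 (22.2%) against 12.5%. The box CCAAT of the partner factor NF-Y was found in 22 of 27 (81.5%) against 43.3%, and the GC box GGGCGG of Sp1 in 22 of 27 (81.5%) against 70.8%. A match is a string of letters and was not measured as a bound site. Shown are Hmgcs1, for its sterol regulatory element, picked after its match was seen, and Elovl5 and Sc5d, which had among the smallest p values of the genes that rose and of those that fell; capitals mark the sterol regulatory element, the E-box and the NF-Y box on either strand.
Hmgcs1 (chr13:119690101-119690400, plus strand): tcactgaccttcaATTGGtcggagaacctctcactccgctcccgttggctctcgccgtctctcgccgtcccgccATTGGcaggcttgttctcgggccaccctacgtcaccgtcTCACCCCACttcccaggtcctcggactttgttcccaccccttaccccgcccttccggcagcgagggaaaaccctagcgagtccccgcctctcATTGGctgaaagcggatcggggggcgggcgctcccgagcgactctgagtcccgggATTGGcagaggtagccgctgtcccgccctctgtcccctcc
Elovl5 (chr9:77917115-77917414, plus strand): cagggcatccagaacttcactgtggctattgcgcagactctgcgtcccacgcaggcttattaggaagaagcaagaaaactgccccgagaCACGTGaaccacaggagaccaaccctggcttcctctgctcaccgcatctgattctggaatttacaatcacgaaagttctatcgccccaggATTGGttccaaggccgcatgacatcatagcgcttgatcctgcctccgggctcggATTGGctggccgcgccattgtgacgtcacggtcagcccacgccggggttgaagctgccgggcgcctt
Sc5d (chr9:42264251-42264550, minus strand): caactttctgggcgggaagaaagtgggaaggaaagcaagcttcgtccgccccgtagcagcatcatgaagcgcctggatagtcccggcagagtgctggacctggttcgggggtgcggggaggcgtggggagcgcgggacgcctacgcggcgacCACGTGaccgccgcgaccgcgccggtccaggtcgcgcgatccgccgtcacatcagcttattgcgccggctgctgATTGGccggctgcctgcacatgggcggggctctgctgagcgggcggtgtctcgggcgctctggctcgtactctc
The element of Hmgcs1 (TCACCCCAC), whose level did not pass the test, begins 137 bases before the start. Elovl5, which rose, and Sc5d, which fell, both hold a CACGTG, beginning 161 and 98 bases before the start, and at least 1 NF-Y box nearer to it.

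The other genes of the pathway, a list of 47 named for their known roles, had no shared direction. Of 43 tested, 5 were higher and 8 were lower, against 15.8% higher and 14.6% lower over all tested genes, with a median log2 fold change of 0.03. With library totals as the scale 13 were higher and 5 were lower, where 74.9% of all calls were higher, and without Rank-knockout replicate 1 the number lower was 5. Of the genes that process SREBPs or degrade enzymes and Insig proteins, 1 of 11 was higher and 1 was lower. Rnf145, a ubiquitin ligase that acts on Scap, was 1.70-fold higher (108 ± 28.9 CPM in WT dams and 183 ± 28.6 CPM in Rank-knockout; edgeR adjusted p = 0.00563), and Erlin2, which takes part in sterol-dependent degradation, was 1.38-fold lower (92.2 ± 9.59 and 67.3 ± 10.6 CPM; edgeR adjusted p = 0.0345). With WT replicate 2 or 4 or either of Rank-knockout replicates 1 and 2 left out, the adjusted p of Erlin2 was 0.0575 to 0.106, and with library totals 0.194. The proteases that release SREBPs, Mbtps1 and Mbtps2, had log2 fold changes of 0.24 ± 0.14 and -0.45 ± 0.33 and did not pass (edgeR adjusted p = 0.207 and 0.320).

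Among nuclear receptors and transcription factors, 2 of 9 were lower: Nr1h3, the liver X receptor that senses oxysterols and can raise Srebf1 (149 ± 23.6 CPM in WT dams and 111 ± 7.69 CPM in Rank-knockout; log2 fold change -0.43 ± 0.14; edgeR adjusted p = 0.0327), and its partner Rxra (219 ± 11.6 and 164 ± 11.3 CPM; log2 fold change -0.42 ± 0.13; edgeR adjusted p = 0.0210). Both calls were lost with library totals as the scale, with adjusted p of 0.207 for Nr1h3 and 0.175 for Rxra. Leaving out WT replicate 2 or 3 or any of Rank-knockout replicates 1 to 3 gave 0.0551 to 0.0970 for Nr1h3, and leaving out WT replicate 4 or Rank-knockout replicate 1 or 3 gave 0.0541 to 0.0561 for Rxra. Of further fatty acid enzymes, 3 of 11 tested were higher and 0 were lower. These were Aacs, which makes acetoacetyl-CoA from a ketone body (2.11-fold; edgeR adjusted p = 0.0112), Mid1ip1, a partner of acetyl-CoA carboxylase (1.70-fold; edgeR adjusted p = 0.0134), and Fads3 (2.16-fold; edgeR adjusted p = 0.0347). Fads3, the neighbour of Fads2, was low, at 3.39 ± 0.969 CPM in WT dams and 6.83 ± 2.62 CPM in Rank-knockout, and its adjusted p was 0.0635 to 0.138 with any of WT replicates 2 to 4 or Rank-knockout replicates 1 and 4 left out.

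In electron and NADPH supply, 5 of 7 genes were lower and 0 were higher, with a median log2 fold change of -0.76. Cyb5a, the cytochrome b5 of the endoplasmic reticulum, passes electrons to the desaturases and to sterol oxidases, and Por passes them to Cyp51 and Sqle. Cyb5r3, the reductase of cytochrome b5, had 725, 870.3, 772 and 778 CPM in WT dams and 294, 439, 426 and 493 CPM in Rank-knockout and was 1.91-fold lower (log2 fold change -0.93 ± 0.16; edgeR adjusted p = 0.000810). Cyb5b had 978, 997, 1071 and 1066 CPM in WT dams and 486, 587, 614 and 735 CPM in Rank-knockout and was 1.70-fold lower (log2 fold change -0.76 ± 0.15; edgeR adjusted p = 0.00163). Por had 388, 380.1, 316 and 359 CPM in WT dams and 135, 231, 216 and 222 CPM in Rank-knockout and was 1.80-fold lower (log2 fold change -0.85 ± 0.17; edgeR adjusted p = 0.00175). In all 3, every Rank-knockout library lay below every WT library, and Rank-knockout replicate 1 was the lowest. The other genes that fell were Cyb5a and Idh1, with log2 fold changes of -0.70 ± 0.19 and -0.90 ± 0.20. Of the 5 genes listed with the branches that leave farnesyl diphosphate, 1 was higher. Tmem97, a sterol-binding protein of the endoplasmic reticulum known as an SREBP target rather than an enzyme of those branches, was 2.08-fold higher (38.2 ± 10.7 CPM in WT dams and 79.3 ± 13.2 CPM in Rank-knockout; edgeR adjusted p = 0.00139).

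**Figure D3:**
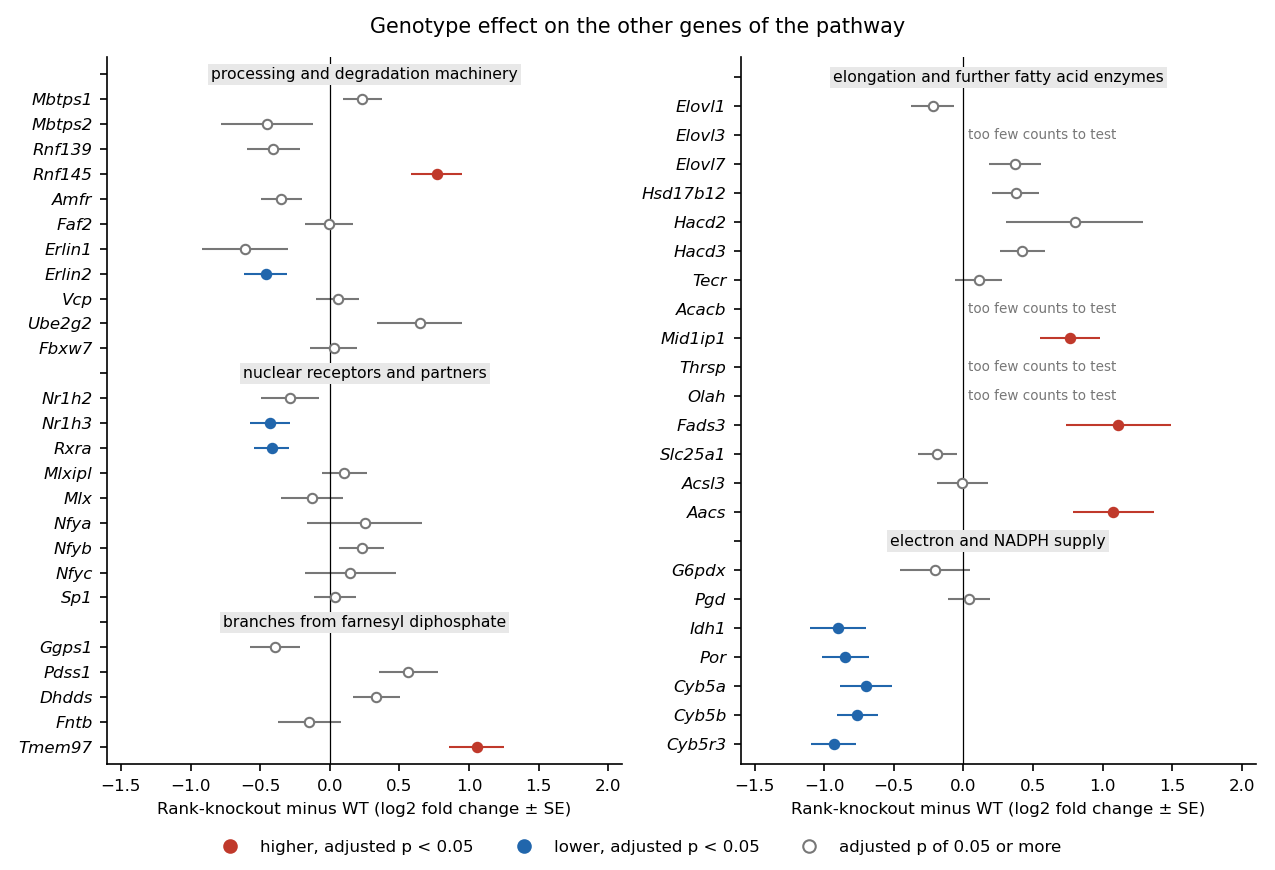
Log2 fold change, Rank-knockout minus WT, with SE, of the 43 tested genes among the 47 other genes of the pathway, in 5 groups; filled points have an edgeR adjusted p under 0.05, and the other 4 are marked as having too few counts. The 5 called genes of electron and NADPH supply lie between -0.93 and -0.70, and the called genes of the fatty acid group lie between 0.77 and 1.11.

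Rank-knockout replicate 1, which had the highest summed level of the fatty acid branch (509 CPM), also had the highest of the cycling markers (2195 CPM) and the lowest of the villus markers (11650 CPM). It had the lowest summed level of the sterol branch among the Rank-knockout libraries (1632 CPM). Without it, 5 genes of the fatty acid branch were higher and 0 lower, and 6 of the sterol branch were higher and 1 lower. Of 7 markers of adipocytes, which also make fatty acids, Adipoq, Lep, Retn and Cfd had 0 counts in all libraries, and only Cidec, a lipid droplet protein, had enough counts to be tested (99.0 ± 17.6 CPM in WT dams and 46.9 ± 3.74 CPM in Rank-knockout; edgeR adjusted p = 0.000369).

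**Figure D4:**
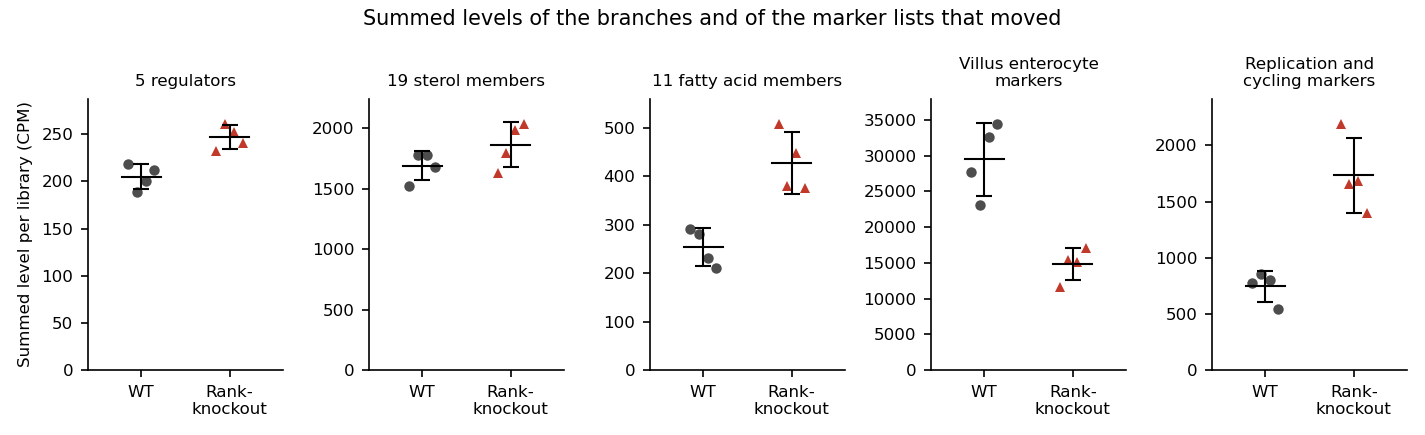
Summed level in CPM of the regulators, the sterol branch, the fatty acid branch and the villus enterocyte and cycling markers, 1 point per library, with the mean as a line and the SD as a bar (n = 4 per genotype). The regulators, the fatty acid genes (210.0 to 292 CPM in WT, 376 to 509 CPM in Rank-knockout) and both marker lists separate the genotypes, and the sterol genes overlap.

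The scale of the libraries mattered for genes near the threshold. With library totals in place of TMM factors, the median log2 fold change of all tested genes moved up by 0.20, and 74.9% of calls were higher instead of 52.0%. Under this scale 9 sterol genes were higher (Hmgcs1, Fdft1 and Nsdhl in addition) and 1 lower, and 7 fatty acid genes were higher (Acaca in addition) and 0 lower, with branch medians of 0.52 and 0.99 against 0.22 over all genes. Library sizes that omit the 50 most abundant genes moved the median of all genes by 0.13. The 13 genes called higher and Sc5d kept their direction and their call under each of these scales, while Insig2 lost its call under both and Me1, which was not called, changed sign under both. With each library left out in turn, 4 to 7 sterol genes were higher, the fewest without WT replicate 1 and the most without WT replicate 2, the deepest WT library, and 5 to 6 fatty acid genes were higher and 0 lower.

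**Figure D5:**
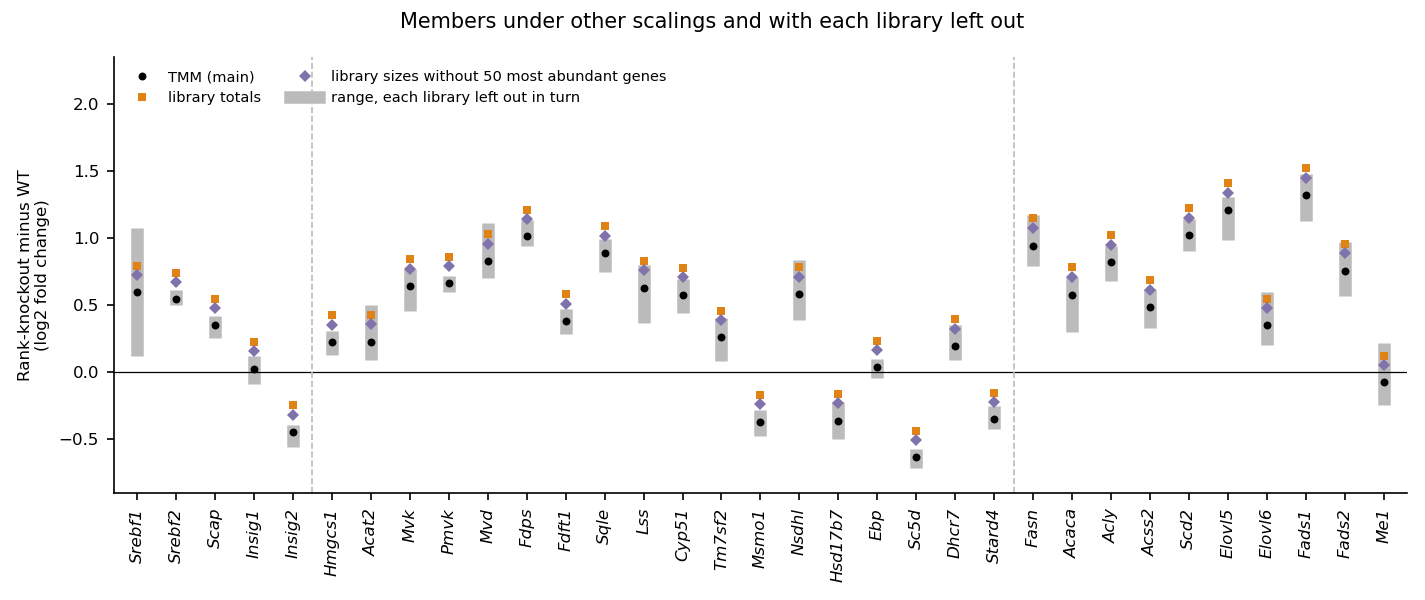
Log2 fold change of the 33 tested genes, Rank-knockout minus WT, with TMM factors (circles), library totals (squares) and library sizes that omit the 50 most abundant genes (diamonds), and the range when each library was left out in turn (grey bars). The points move up together under the other scales, and the grey bar of Srebf1, from 0.12 to 1.07, is the widest.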

How the data were processed

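Epithelial cells of the intestine of 4 WT and 4 Rank-knockout dams at lactation day 5 were profiled by 3′ mRNA-seq, 1 library per mouse, with no molecular identifiers named, so PCR copies count as reads. The study's methods state that the authors trimmed them with BBDuk, removed abundant sequences with bowtie2, aligned the rest to GRCm38 (mm10 in the submitters' processing notes) with STAR and counted sense-strand reads per gene with featureCounts. The authors deposited these read counts per gene without normalization, 1530781 to 4335653 per library, so that genes with few reads are measured less precisely, most of all in the shallow WT libraries. Symbols and positions came from GENCODE M21 (54495 of 54532 identifiers found).

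Counts were filtered with filterByExpr, scaled with TMM factors and tested with the robust quasi-likelihood F-test of edgeR 4.0.16 in R 4.3.3, with genotype as the only term and Benjamini-Hochberg adjustment over all 9855 tested genes at 0.05. CPM values use TMM-scaled library totals. SE values were obtained from the F statistic. P values measure the spread between these mice. Every one of the 35 genes is named. Values of each library are given for the regulators and for the genes past the threshold among the 8 smallest p of each branch, and also for Stard4, Cyb5r3, Cyb5b and Por, chosen after their values were seen; up to 3 genes with the smallest p past the threshold are named in each group of other pathway genes, and promoters are shown for genes among the 3 smallest p in a direction, apart from exceptions stated. The 35 genes and the other lists were chosen with earlier results of these data known. The test was repeated with DESeq2 1.42.0 and with limma-voom (limma 3.58.1), with scaling by RLE size factors, by library totals and by library sizes that omit the 50 most abundant genes, with all genes kept or only those averaging 5 CPM or more, with a term for the replicate number, and leaving out 1 library at a time. No 2 libraries agreed within sampling noise.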

Additional observations from a re-analysis of the deposited data

Results flagged for a closer look

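Values of the 33 tested genes, the summed levels of the 3 groups and the total counts gave 74 sets of 4 libraries, and in 4 of them the library farthest out stood apart by Dixon's criterion; chance alone gives about 3.7. Mvd in WT replicate 2 was at 125.9 CPM, against 66.6 to 71.3 CPM in the other WT libraries. Lss in Rank-knockout replicate 4 was at 11.2 CPM, against 6.32 to 6.69 CPM in the other Rank-knockout libraries. Me1 in WT replicate 4 was at 18.5 CPM, against 25.6 to 26.4 CPM in the other WT libraries. WT replicate 2 had 4335653 counts, against 1530781 to 1616024 in the other WT libraries.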

How the results depend on the processing

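The log2 fold changes of 50 genes (the 33 tested genes, Tnfrsf11a and 16 others named above) were computed under up to 16 alternatives. Of these 798 values, 716 kept their direction and side of the threshold, 61 kept their direction and lost the call, 11 gained one and 10 changed sign. The genes that changed sign, Insig1, Ebp and Me1, were not called in any setting. Insig1 was at -0.020 with limma-voom and between -0.087 and 0.12 with each library left out. Ebp was between -0.042 and 0.10 with each library left out. Me1 was at 0.12 with library totals, at 0.055 without the 50 most abundant genes in the library sizes, and between -0.24 and 0.22 with each library left out.

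Over all genes, library totals gave 2566 genes higher and 859 lower instead of 1555 and 1438, and leaving each library out gave 1020 to 1718 higher, the fewest without WT replicate 4, and 1097 to 1564 lower. Of the 43 other pathway genes, 13 were higher and 5 lower with library totals, 9 higher and 5 lower without the 50 most abundant genes in the library sizes, and 5 lower with no filter on low counts, instead of 5 and 8, and 5 to 8 were lower with each library left out. Of the regulators, 2 were higher with library totals (Srebf2 and Scap). The number of regulators lower was 0 instead of 1 with library totals, without the 50 most abundant genes in the library sizes, with no filter on low counts, with only genes averaging 5 CPM or more and with the replicate block, and 0 to 1 with each library left out. Sterol genes lower were 1 to 2 with each library left out, Msmo1 joining Sc5d without Rank-knockout replicate 4. The labels give each library as its own mouse and tie the replicate numbers to nothing shared, and same-numbered libraries of the genotypes had deviations that correlated at 0.05, 0.15, -0.14 and 0.32 across genes. With the replicate number as a block, 1708 genes were higher and 1602 lower, 6 sterol genes were higher and 2 lower (Sc5d and Stard4, with an edgeR adjusted p of 0.0493 for Stard4), and 6 fatty acid genes were higher and 0 lower; Insig2 lost its call at an adjusted p of 0.0513. Counting error is widest for Srebf1, Lss, Nsdhl, Acss2 and Fads2, with 5 to 9 counts in their lowest library, though its part in their results was not tested; Idi1 and Scd1 had too few counts to be tested.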
